A study of Arabidopsis thaliana with 4 samples.

Results

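Serine/arginine-rich (SR) splicing factors of the SCL, RSZ and SR45 groups were examined through the SHAPE reactivities of their own pre-mRNAs. The genes were chosen by name: SCL28 (AT5G18810), SCL30 (AT3G55460), SCL30a (AT3G13570), SCL33 (AT1G55310), SC35 (AT5G64200), RSZ21 (AT1G23860), RSZ22 (AT4G31580), RSZ22a (AT2G24590), SR45 (AT1G16610) and SR45a (AT1G07350). Of these 10 genes, 9 had rows among the 9265 genes of the series, and SCL28 had none. The member introns numbered 66 of 34255 after deproteinization and 45 of 24782 in vivo, 41 of them in both conditions and 70 in either. Poly(A) windows numbered 10 of 1068 after deproteinization and 21 of 6605 in vivo, with 10 in both.

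Nuclear RNA of Arabidopsis thaliana (Col-0) seedlings grown for 5 days was probed with NAI, a SHAPE reagent that modifies flexible, mostly unpaired nucleotides. In the deproteinized condition, the reagent met RNA from isolated nuclei after proteins had been removed. In the in vivo condition, it was applied to intact seedlings before nuclei were isolated. NAI was used at 100 mM, each condition had libraries with and libraries without the reagent, replicates were merged by the authors, and the deposited tables hold 1 merged profile per condition. No replicate spread can therefore be given: the SDs below run over introns or windows, a score of a single nucleotide has no error, and no test was run between conditions. The read depth behind a score is unknown.

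SR proteins carry an RNA recognition motif that binds exonic and intronic sequences and an arginine/serine-rich domain that contacts the splicing machinery. In plants their own pre-mRNAs are heavily alternatively spliced, and a long intron in the region coding for the RNA recognition motif is a common place for it, with many of the products holding premature stop codons. SCL proteins form a plant-specific subgroup with a charged extension before the RNA recognition motif, SC35 is the counterpart of the animal factor of that name, RSZ proteins add a zinc knuckle, and SR45 and SR45a have an arginine/serine-rich region on either side of the motif.

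An intron entry ran from 50 exon nucleotides before the 5′ splice site to 50 after the 3′ splice site, and every score was relative to its own entry, from 0 to 1. Both ends of that range held a few percent of nucleotides, in introns and in poly(A) windows alike. Of the members' nucleotides, 5.72% were at 0 and 5.79% at 1 after deproteinization, and 6.04% were at 0 and 6.47% at 1 in vivo. A score of 1 thus means among the most reactive nucleotides of its entry. In each entry 1 intermediate score also recurred, at 3.06% to 45.1% of a member entry's nucleotides after deproteinization and at 8.04% to 61.4% in vivo, and nucleotides with it have no order among themselves. No value was given for 1.39% of nucleotides after deproteinization and for 6.13% in vivo. The poly(A) scores, deposited from 0 to 2, were divided by 2. Position −1 is the last exon nucleotide before the 5′ splice site (5′ss) and −2 the one before it. The paper limited its own splicing profiles to the 5′ss and the intron without its final AG. It states that reads starting just after a 3′ splice site cannot be assigned with confidence to spliced or unspliced RNA. Scores in the exon after an intron carry that limit.

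The 5′ss of the introns that the results turn on are given here 5′ to 3′ from −10 to +10 in TAIR10.1, with the nucleotides at −2 and −1 in capitals. The first 3 are the long introns of the SCL genes, each with alternative 5′ and 3′ splice sites among the rows. Other introns of these genes had alternative sites as well.
SCL30 intron 3, chr3:20561378-20562477, plus strand: attactcaGGgtaagcctcc
SCL30a intron 3, chr3:4430320-4431044, minus strand: actatactGGgtgaggatgc
SCL33 long intron, chr1:20631120-20631884, plus strand: attataccGGgtgagcatgt
The next sites are the alternative 5′ss inside those introns, joined to the same 3′ splice site (3′ss).
SCL30, chr3:20562393-20562477, plus strand: gattttgcTGgtaattctag
SCL30a, chr3:4430320-4430482, minus strand: aggtttgcAGgcaagtgctt
SCL33, chr1:20631723-20631884, plus strand: aggctagcAGgcaagtgctt
The last sites are neighbouring or competing 5′ss of SC35, SR45 and SR45a.
SC35, chr5:25681543-25681732, minus strand: cttgctttCCgtaggtgccc
SC35, chr5:25681543-25681728, minus strand: ctttccgtAGgtgccctcaa
SR45, chr1:5676007-5676281, minus strand: gtcctaagAGgtaaacactt
SR45, chr1:5676007-5676107, minus strand: tactttctTGgtgagtttgg
SR45a, chr1:2258603-2259002, minus strand: tgttgagaAGgtaaaaagac
SR45a, chr1:2258603-2258749, minus strand: gacatttaGGgttgtatgcc
SR45a, chr1:2258603-2258746, minus strand: atttagggTTgtatgccctg
The long introns of all 3 SCL genes had GG at −2 and −1, and GG stood there in 13 of the 70 member introns (18.6%), against 5.33% of all 43246 introns in either condition. The 13 take each of these long-intron 5′ss once for every 3′ splice site joined to it. The alternative site of SCL30a and that of SCL33 both began with GC in place of GT, and 18 of their 20 letters were identical. Introns with GC at the start and AG at the end made up 3 of the 70 member introns (4.29%), against 2.02% of all introns. The third was an RSZ22 intron within a coding exon, chr4:15307481-15307639. The long-intron 5′ss of SCL30a and SCL33 shared 16 of 20 letters.

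Many rows were not independent. The 70 introns had 54 distinct 5′ss and 62 distinct 3′ss, and 38 of them belonged to sets with a shared end, 7 sets of alternative 5′ss and 12 of alternative 3′ss. Overlapping introns of a gene repeat the same nucleotides, and their scores in the overlap had a median Pearson r of 0.999 after deproteinization (50 pairs) and 0.999 in vivo (23 pairs). Sequences of 19 pairs of paralogous introns (SCL30a with SCL33, RSZ22 with RSZ22a) were between 67.9% and 79.8% identical. At identical nucleotides of these pairs, r ranged between −0.197 and 0.21 with a median of 0.0168, so their profiles were not alike in spite of their sequences. The pairs overlap one another, and all but those with RSZ22 and RSZ22a in vivo are from the deproteinized condition.

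Reactivity was highest at −1 in the mean profile of the member genes in both conditions, as in the series. After deproteinization −1 averaged 0.555 ± 0.385 (SD, n = 66 introns) in the members and 0.59 ± 0.366 in all introns (n = 33903). In vivo it averaged 0.529 ± 0.378 (n = 45) in the members and 0.534 ± 0.365 in all introns (n = 23735). Flanks were defined as the 18 exon nucleotides before −2 and the first 20 intron nucleotides. They averaged 0.376 ± 0.0704 after deproteinization and 0.328 ± 0.0592 in vivo in the members, so that −1 exceeded them by 0.179 ± 0.384 and 0.201 ± 0.391. In all introns −1 exceeded its flanks by 0.246 ± 0.367 after deproteinization and 0.196 ± 0.366 in vivo. The SD over introns was larger than each of these excesses.

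Counts of high sites lay on either side of the background. Scores of at least 0.6, the top reactivity class, stood at −1 in 31 of 66 member introns after deproteinization, beside a background of 49.7%, and in 16 of 45 in vivo, beside 42.2%. The −1 nucleotide was above its flanks in 40 of 66 (background 67.5%) and in 29 of 45 (background 60.8%). The −1 nucleotide was at 0 in 11 of 66 after deproteinization (background 9.35%) and in 8 of 45 in vivo (background 9.76%). Over distinct sites these zeros numbered 10 of 50 after deproteinization and 7 of 36 in vivo. It was at 1 in 20 of 66 (background 31.9%) and in 14 of 45 (background 27%). The members' shares were below the background after deproteinization for all 3 of these high counts, and in vivo for scores of at least 0.6 only. The same counts were taken in 10 other SR genes, of the SR, RS and RS2Z subgroups. They were 30, 43 and 17 of 80 after deproteinization, also below the background. In vivo they were 23, 28 and 16 of 43, above it. Zeros at −1 numbered 13 of 80 and 10 of 43 there, above the background as in the members.

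Position −2 was somewhat higher in the members than in all introns after deproteinization, and not in vivo. It averaged 0.492 ± 0.296 (n = 66) after deproteinization, against 0.436 ± 0.277 in all introns. In vivo it averaged 0.379 ± 0.287 (n = 43), against 0.383 ± 0.265 in all introns. A score of at least 0.6 was found at −2 in 24 of 66 introns after deproteinization (background 25.2%) and in 10 of 43 in vivo (background 18.7%). Overlapping introns added to the first count, which was 15 of 50 over distinct sites, and the second was 8 of 35. The lowest and highest scores were rare at −2 in either condition. It was at 0 in 2 of 66 introns (background 4.37%) and at 1 in 4 (background 7.81%) after deproteinization, and at 0 in 3 of 43 (background 5.53%) and at 1 in 2 (background 6.71%) in vivo. The −2 nucleotide was above its flanks in 38 of 66 (background 56.1%) and in 20 of 43 (background 44.8%). Its excess over the flanks was 0.116 ± 0.276 after deproteinization and 0.0509 ± 0.273 in vivo, but 0.0244 after deproteinization with 1 intron per gene (n = 8).

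**Figure D1:**
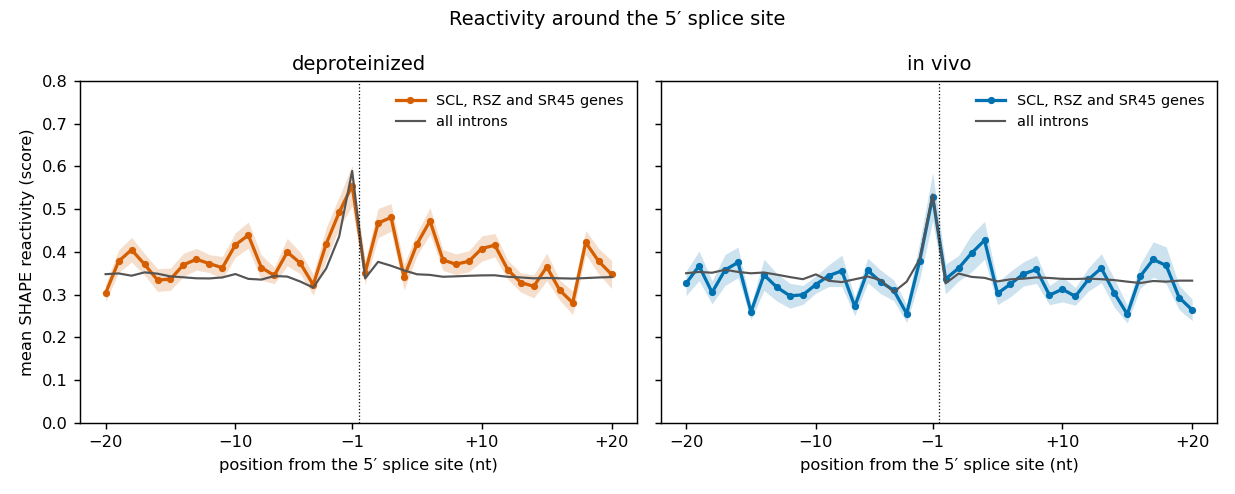
Mean SHAPE reactivity (score, y axis) at each position within 20 nt of the 5′ss (x axis, nt) in the member genes (coloured line with points, band = standard error over introns) and in all introns (grey line), deproteinized left and in vivo right. The band counts overlapping introns separately and is no error of the merged profile. The members' line peaks at −1, at 0.555 after deproteinization and 0.529 in vivo, close to the grey line at 0.59 and 0.534.

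The 41 introns with rows in both conditions showed that single sites moved a great deal between conditions while the means moved little. At −1 the members averaged 0.494 ± 0.398 after deproteinization and 0.55 ± 0.367 in vivo, a difference (deproteinized minus in vivo) of −0.0558 ± 0.493 (SD, n = 41). All shared introns differed by 0.0457 ± 0.381 (n = 14871). The other SR genes differed by −0.0658 ± 0.439 (n = 40), with 14 introns higher after deproteinization and 17 lower. The score at −1 was higher after deproteinization in 14 member introns (background 43.7%), lower in 19 (background 33.8%) and equal in 8. At −2 the members averaged 0.492 ± 0.29 after deproteinization and 0.359 ± 0.268 in vivo, a difference of 0.134 ± 0.402 (n = 39). All shared introns differed at −2 by 0.0518 ± 0.329, and 22 of the 39 member introns were higher after deproteinization (background 56.1%) and 17 lower (background 41.3%). This difference rested in part on SR45a, without which it was 0.0692 (n = 28), and it was 0.0187 with 1 intron per gene (n = 6).

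A difference of at least 0.3 at −1, in either direction, was found in 24 of 41 member introns, beside a background of 35.7%. It was found in 18 of 32 distinct member 5′ss, against 35.8% of all distinct 5′ss, and in 12 of 40 introns of the other SR genes. With each gene left out in turn the members' share stayed between 53.1% and 65.7%. Of the 24 introns, 11 were higher (background 21.6%) and 13 lower (background 14.1%). At −2 the count was 16 of 39 (background 32.3%), with 13 higher (background 20.1%) and 3 lower (background 12.2%), but over distinct sites it was 10 of 31 (background 32.5%), so the members did not stand apart there. The 0.3 limit was chosen after the scores had been seen. In 3 introns −1 lay at opposite ends of the scale in the 2 conditions (background 2.94%), namely SC35 introns 2 and 5 and SR45a intron 5.

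**Figure D2:**
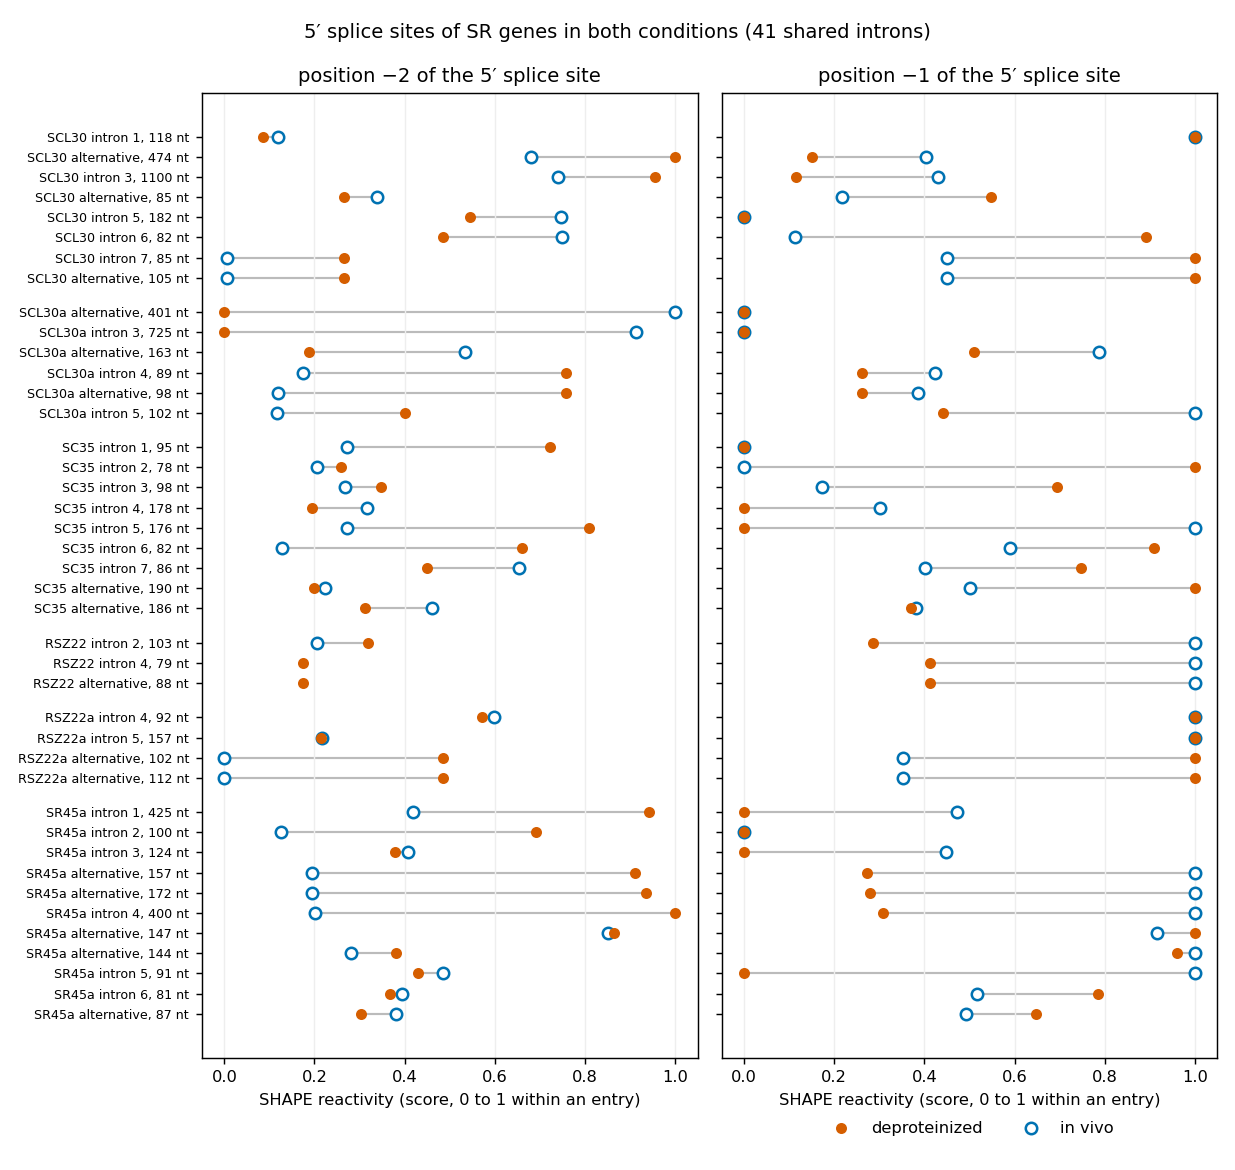
Reactivity score at −2 (left) and −1 (right) of the 5′ss for each of the 41 shared introns, grouped by gene from top to bottom. Filled points are deproteinized, open points in vivo, and a grey line joins the 2 scores of an intron. At −1, 24 of the 41 lines span at least 0.3, with 11 introns higher and 13 lower after deproteinization. An intron called alternative is not in the reference mRNA, and 2 RSZ22 introns have no in vivo score at −2.

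The whole entries were alike in mean score and only moderately alike in pattern. Because scores are scaled within an entry, like means do not show that reactivity itself was alike in the 2 conditions. The mean score of an entry was 0.389 ± 0.0314 after deproteinization and 0.363 ± 0.0435 in vivo, a difference of 0.0262 ± 0.058 (n = 41). All shared introns differed by 0.0121 ± 0.0578 (n = 15678). The Pearson r between the conditions, over the nucleotides of an intron, ranged between −0.0552 and 0.678 with a median of 0.327, against a median of 0.315 over all shared introns. Shifting one profile by 1 nt against the other brought the members' median r to 0.00344 or 0.00847. The tables of the 2 conditions are therefore in the same register. By gene the median r was 0.144 in SCL30a, 0.272 in SC35, 0.295 in RSZ22, 0.308 in RSZ22a, 0.36 in SCL30 and 0.458 in SR45a.

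SCL30 had 8 introns after deproteinization and 9 in vivo. Its long intron 3, at 1100 nt the longest of all members, was more reactive at −2 than at −1 in both conditions. The score at −2 was 0.955 after deproteinization and 0.74 in vivo, and at −1 it was 0.115 after deproteinization and 0.431 in vivo, beside flanks of 0.393 and 0.36. The same 5′ss joined to a nearer 3′ss (chr3:20561378-20561851, 474 nt) scored 1 at −2 and 0.152 at −1 after deproteinization, against 0.681 and 0.404 in vivo. At the alternative 5′ss inside intron 3, with TG in the place of GG, −2 had 0.265 after deproteinization and 0.339 in vivo, and −1 had 0.548 and 0.218. Thus −2 was higher at the outer site in both conditions, whereas −1 was higher at the inner site after deproteinization and at the outer site in vivo.

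**Figure D3:**
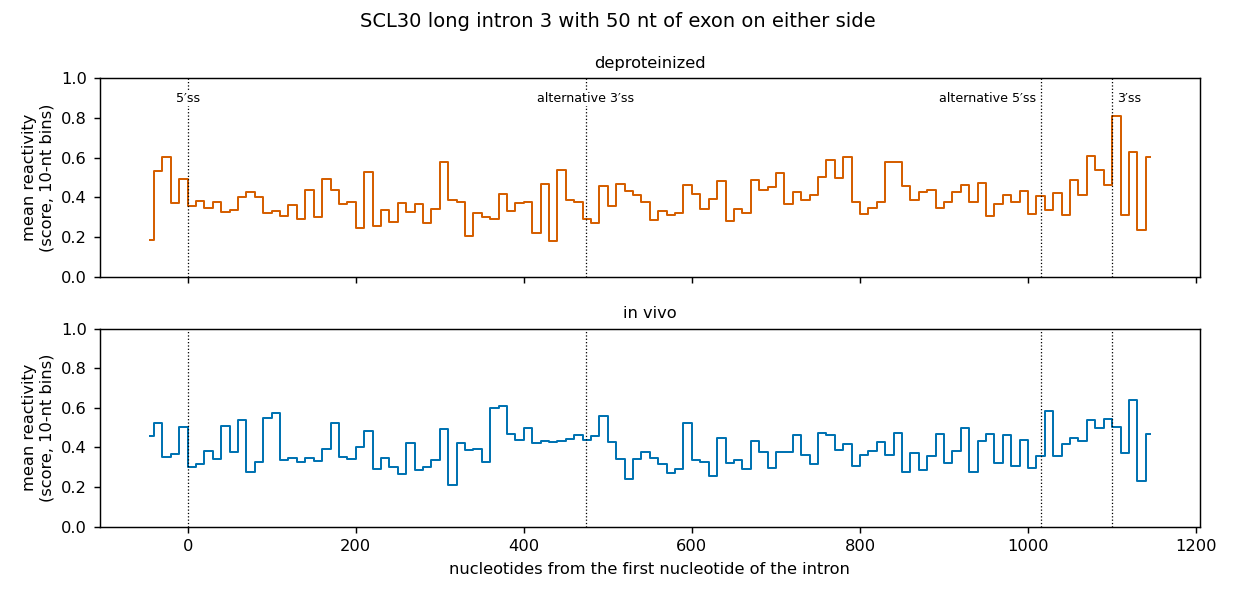
Mean score in 10-nt bins (y axis) along SCL30 intron 3 and 50 exon nucleotides before and after it (x axis, nt from the first intron nucleotide), deproteinized above and in vivo below. Dotted lines mark the 5′ss, the alternative 3′ss, the alternative 5′ss and the 3′ss. The first exon bin after the 3′ss stands at 0.808 after deproteinization and 0.501 in vivo. Per the paper, reads starting just past a 3′ss cannot be assigned with confidence to spliced or unspliced RNA.

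The other introns of SCL30 differed most at −1. Intron 7 (chr3:20563315-20563399) had the largest change of the gene in the mean of both positions, 0.632 after deproteinization and 0.228 in vivo, with −1 at 1 and 0.45. Intron 6 had 0.892 at −1 after deproteinization and 0.113 in vivo. Intron 1, in the 5′ untranslated region, was at 1 in both conditions, and intron 5 at 0 in both. Over the 8 shared introns, with 6 distinct 5′ss, −1 was higher after deproteinization in 4, lower in 2 and equal in 2. Of these introns, 5 changed by at least 0.3. Intron 4 had a row only in vivo, where 30.7% of its nucleotides had no value.

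SCL30a had the opposite direction at −1. Over its 6 shared introns, with 4 distinct 5′ss, −1 was lower after deproteinization in 4, equal in 2 and higher in none, with a mean difference of −0.187. Its long intron 3 (725 nt) scored 0 at −2 and 0 at −1 after deproteinization, against 0.912 and 0 in vivo, with flanks of 0.403 and 0.376. The same 5′ss joined to an internal 3′ss (chr3:4430644-4431044, 401 nt) scored 0 and 0 after deproteinization, against 1 and 0 in vivo. This was the largest change of the gene in the mean of both positions, 0 after deproteinization and 0.5 in vivo. The G at −2 of this site was thus at the bottom of the scale in one condition and at or near its top in the other, while the G at −1 was at 0 in both.

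The inner GC site of SCL30a (163 nt) had 0.187 at −2 and 0.511 at −1 after deproteinization, against 0.533 and 0.787 in vivo. Intron 4, with 3′ss 9 nt apart, had 0.758 at −2 after deproteinization, against 0.176 and 0.12 in vivo for the 89-nt and 98-nt forms. The first intron, in the 5′ untranslated region, had rows only after deproteinization. Its 377-nt form (chr3:4431622-4431998) scored 1 at −2 and 1 at −1, and its 99-nt form (chr3:4431622-4431720) scored 0.247 at both, which is the recurring score of that entry. In the last intron, intron 5, −1 had 0.44 after deproteinization and 1 in vivo.

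SCL33, which in Arabidopsis is known to control the splicing of its own long intron, had 8 introns, all after deproteinization. The 5′ss of the long intron was joined to 4 different 3′ss, giving introns of 438, 441, 567 and 765 nt. It had between 0.847 and 0.889 at −2 and 1 at −1 in every one of these overlapping rows, beside flanks between 0.502 and 0.522. The exon before this site averaged 0.607 in the 765-nt entry and the intron 0.37. The inner GC site (162 nt) had 0.473 at −2 and 0.454 at −1, beside flanks of 0.262. Its counterpart in SCL30a, with nearly the same letters, had 0.187 and 0.511 in the same condition. The 5′ss of the long introns differed as well, since −1 was at 1 in SCL33 and at 0 in SCL30a, although both have GG there.

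SC35 had 9 introns in both conditions, each with a 5′ss of its own. At −1, 5 were higher after deproteinization, 3 lower and 1 equal, and 7 changed by at least 0.3. Intron 2 (chr5:25683226-25683303) changed most in the mean of both positions, 0.629 after deproteinization and 0.102 in vivo, with −1 at 1 and at 0. Intron 5 (chr5:25682486-25682661) had −1 at 0 after deproteinization and at 1 in vivo, and −2 at 0.809 and 0.273. The last nucleotides of these exons thus went opposite ways across the whole range of the scale. Intron 7 had the lowest likeness between conditions of all members, r = −0.0552 over its entry, 23.1% of which had no value in vivo.

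RSZ22 and RSZ22a are paralogues, but only intron 4 had rows in both conditions in both genes. Its −1 changed in RSZ22 and not in RSZ22a. The other introns that changed at −1 had a counterpart with a row in 1 condition only, so they cannot be compared between the genes. The 3 shared RSZ22 introns, with 2 distinct 5′ss, were all lower after deproteinization, with a mean of 0.37 at −1, against 1 in vivo. Intron 2 (chr4:15307072-15307174) had 0.285 after deproteinization and 1 in vivo. Intron 4, in 2 forms with 3′ss 9 nt apart, had 0.413 and 1. In vivo the entry of its shorter form lacked a value at 27.4% of nucleotides, among them −2. Of the 4 shared RSZ22a introns, 2 were higher after deproteinization and 2 equal, with a mean of 1 at −1 after deproteinization and 0.676 in vivo. The 2 higher ones share their 5′ss and had the same scores there.

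RSZ22a introns 4 and 5 had −1 at 1 in both conditions. Over the entry, the r between conditions was 0.406 in intron 4 and 0.474 in intron 5. The intron in the 3′ untranslated region (chr2:10451068-10451169) had 0.486 at −2 and 1 at −1 after deproteinization, against 0 and 0.352 in vivo. All 5 RSZ22a introns of the deproteinized condition, intron 3 included, had a score of 1 at −1. The corresponding intron of the 3′ untranslated region of RSZ22 (chr4:15308254-15308358), with a row only after deproteinization, had 0.984 and 1. RSZ21 had no intron rows.

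SR45, a factor that acts with SR proteins and is known for isoforms that differ by neighbouring 3′ss, had 11 introns, all after deproteinization. The score at −1 averaged 0.598 over them, and 5 of 11 were at or above 0.6 (background 49.7%). All 5 were overlapping rows of the 5′ss of intron 6 or of the last intron, so the mean and the count repeat those sites. The 11 introns had 8 distinct 5′ss. The 3′ss of intron 6 lie 21 nt apart, and the 5′ss they share had 0.0403 at −2 and 0.762 at −1 in the shorter form. The nucleotides from −7 to −4 of the 3′ss averaged 0.527 in the 89-nt form and 0.198 in the 110-nt form. These 3′ss, the shorter intron's first, are shown over their last 25 intron and first 5 exon nucleotides with the terminal AG of the intron in capitals.
SR45, chr1:5677377-5677465, minus strand: attagtatcatcaatatgtgcttAGcatct
SR45, chr1:5677356-5677465, minus strand: ttagcatctcctcaacggaaaacAGggctt
The last intron had a 5′ss that was joined to 3 different 3′ss and had −1 at 1 in every form, and −2 between 0.613 and 0.64. The inner 5′ss, 174 nt downstream, had 0.258 at −1 and 0.455 at −2.

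SR45a, a stress-responsive relative of the animal factor Tra2, had 11 introns in both conditions, and it carried much of the difference between −2 and −1. Over its introns −2 averaged 0.655 after deproteinization and 0.358 in vivo, whereas −1 averaged 0.387 after deproteinization and 0.713 in vivo. At −2, 7 were higher after deproteinization and 4 lower, and at −1, 3 were higher, 7 lower and 1 equal. The 11 introns had 8 distinct 5′ss, so these means and counts take some sites more than once. The 5′ss of the 400-nt intron 4 had 1 at −2 and 0.309 at −1 after deproteinization, against 0.202 and 1 in vivo. The more reactive of these nucleotides was thus a different one in each condition, also in the 157-nt and 172-nt introns that use the same 5′ss.

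Intron 5 of SR45a (chr1:2258448-2258538) had the largest change of the gene in the mean of both positions, 0.215 after deproteinization and 0.743 in vivo. Its −1 was at 0 after deproteinization and at 1 in vivo, and its −2 had 0.43 and 0.485. Intron 1, the longest of the gene at 425 nt, had 0.941 at −2 and 0 at −1 after deproteinization, against 0.419 and 0.472 in vivo. Introns 2 and 3 had −1 at 0 after deproteinization as well, against 0 and 0.448 in vivo. The last intron, in its 81-nt and 87-nt forms, was the most alike between conditions of all member introns, with r of 0.64 and 0.678. Without SR45a the mean difference at −1 over the shared introns changed sign, to 0.0434 (n = 30).

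The 7 sets of alternative 5′ss held 15 introns. After deproteinization −1 was higher at the 5′ss of the longer intron in SCL30a (377 nt against 99 nt, 1 and 0.247), SCL33 (1 and 0.454), SC35 (1 and 0.37) and SR45 (1 and 0.258). It was lower at that site in SCL30 (0.115 and 0.548) and in the long intron of SCL30a (0 and 0.511). In SR45a the 400-nt, 147-nt and 144-nt introns had 0.309, 1 and 0.96. In vivo, where 4 of the sets had rows, −1 of the longer intron was the higher one in SCL30 (0.431 and 0.218) and SC35 (0.501 and 0.38). It was the lower one in SCL30a (0 and 0.787), and the 3 SR45a introns had 1, 0.916 and 1.

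The neighbouring sites were close enough to be compared within nearly the same entry. In SC35 the 5′ss are 4 nt apart in the 3′ untranslated region, and the upstream one had a CC at −2 and −1. Its −1 scored 1 after deproteinization and 0.501 in vivo, and the −1 of the downstream one 0.37 and 0.38. In SR45a the sites of the 147-nt and 144-nt introns are 3 nt apart, and −2 had 0.864 at the upstream one and 0.381 at the downstream one after deproteinization, against 0.852 and 0.28 in vivo. At −1 the SC35 neighbours kept their order in both conditions, whereas the SR45a neighbours, at 1 and 0.96 after deproteinization and at 0.916 and 1 in vivo, did not. In the authors' list of alternative sites, used here in part, the longer intron is the major one in the sets of SCL33, SC35 and SR45, in the long intron of SCL30a, and between the close pair of SR45a.

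**Figure D4:**
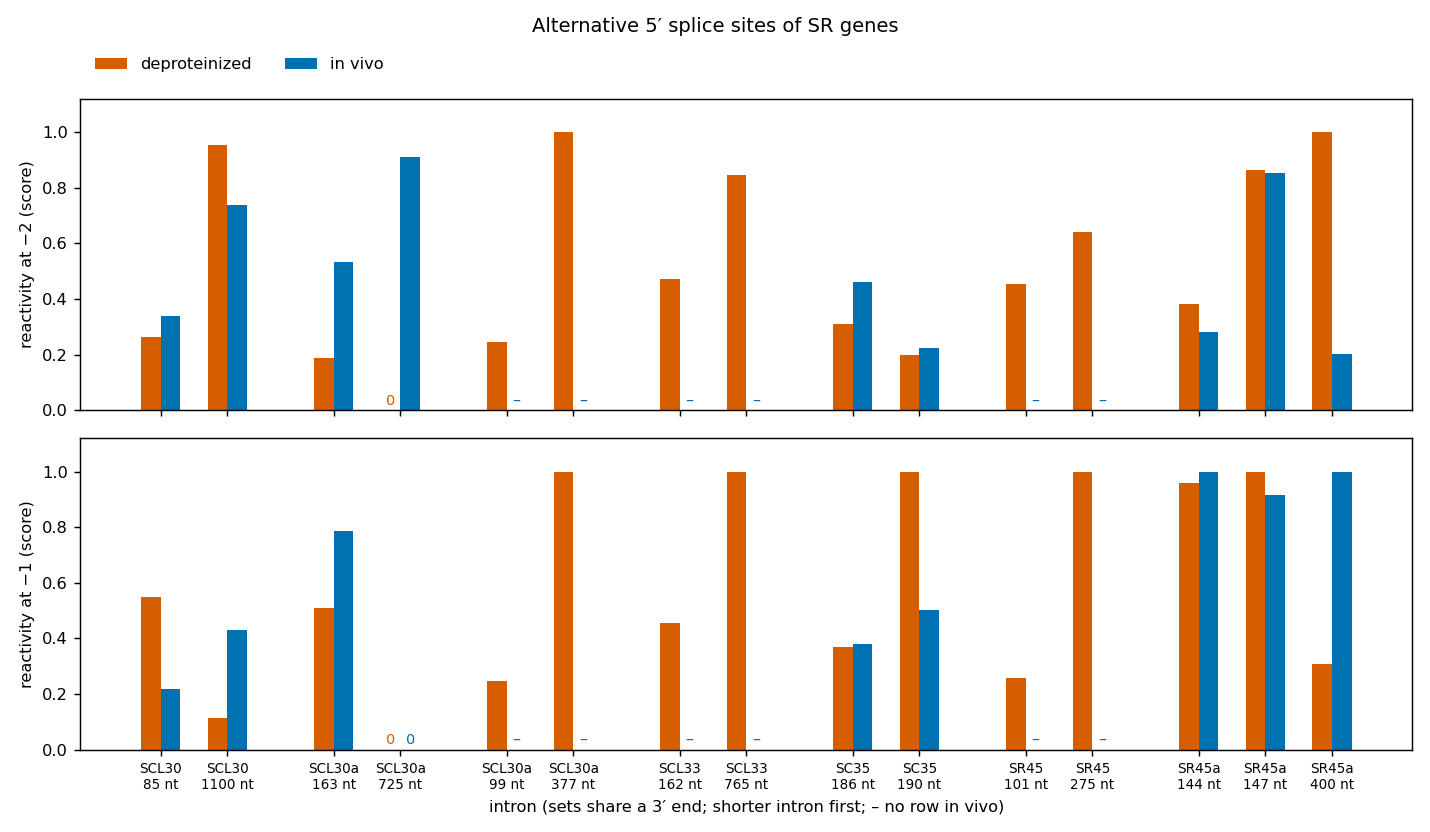
Reactivity score at −2 (above) and −1 (below) of the 5′ss in the 7 sets of alternative 5′ss of the member genes, deproteinized bars left of in vivo bars. Each set shares a 3′ end and starts with its shortest intron, a dash marks an intron with no row in vivo, and 0 marks a score of 0. The deproteinized −1 stands at 1 in the longer intron of SCL33, SC35, SR45 and the 5′ intron of SCL30a, and at 0 in the 725-nt intron of SCL30a.

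At the 3′ end of introns the members resembled the series. The nucleotides from −7 to −4 of the 3′ss were below those from −20 to −8 in 43 of 66 introns after deproteinization (background 63.9%) and in 28 of 45 in vivo (background 60.4%). The differences averaged −0.0593 ± 0.145 and −0.0474 ± 0.133. Alternative 3′ss differed in both directions, and the first member of each pair below is the shorter intron. At 3′ss 9 nt apart after deproteinization, SCL30a intron 4 had 0.298 at the 89-nt form and 0.0462 at the 98-nt form, and RSZ22 intron 4 had 0.388 at the 79-nt form and 0.121 at the 88-nt form. In vivo the same sites had 0.382 and 0.28 in SCL30a, and 0.385 and 0.238 in RSZ22. In the set of SCL30 intron 7, from −7 to −4 the 85-nt form had 0.566 and the 105-nt form 0.357 after deproteinization, against 0.6 and 0.467 in vivo. RSZ22a, with forms of 102 and 112 nt, had 0.327 and 0.271 after deproteinization, against 0.289 and 0.182 in vivo. In the longer forms of these 4 sets, the nucleotides from −7 to −4 lie in the exon after the nearer 3′ss. They carry the limit on reads past a 3′ss. The shorter form was the higher one in each of these 4 sets and in both conditions. SR45a went the other way in its last intron, with 0.193 at the 81-nt form and 0.367 at the 87-nt form after deproteinization, against 0.27 and 0.316 in vivo. Its 157-nt, 172-nt and 400-nt introns had 0.313, 0.287 and 0.607 after deproteinization, against 0.31, 0.663 and 0.41 in vivo. In SCL33, after deproteinization only, the 92-nt and 95-nt forms had 0.457 and 0.244, and the 4 forms of the long intron were between 0.223 and 0.274. The 3 forms of the last SR45 intron had 0.285, 0.371 and 0.503, in order of length. In the long introns, SCL30 had 0.395 at 474 nt and 0.449 at 1100 nt after deproteinization, against 0.473 and 0.453 in vivo. SCL30a had 0.0984 at 401 nt and 0.278 at 725 nt after deproteinization, against 0.475 and 0.283 in vivo.

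A branch site motif was found by searching the intron strand for CTNAC and CTNAT, with A or G as the N, whose last A lay 15 to 50 nt from the intron end. It was present with a score in 18 of 66 member introns and 8331 of 34255 introns of the series after deproteinization, and in 14 of 45 and 5715 of 24782 in vivo. The A averaged 0.534 ± 0.391 after deproteinization and 0.517 ± 0.336 in vivo, and stood above its flanks by 0.138 ± 0.397 and 0.113 ± 0.331. It was above them in 8 of 18 introns (background 60.7%) and in 9 of 14 (background 59.4%). Introns that share a 3′ss enter the same A more than once in these means and counts. Examples with the motif in capitals follow, in the order RSZ22a intron 5, SC35 intron 6 and SR45a intron 5. They come from the high end after deproteinization and are not typical, since the members' median difference from the flanks was −0.0819 there.
RSZ22a: catgtggCTGATaagtttttg
SC35: gtgtatcCTGATttcaacttt
SR45a: gtgtttcCTGATtttacctta
The A scored 1 after deproteinization and 0.77 in vivo in RSZ22a, 1 and 1 in SC35, and 1 and 0.21 in SR45a. The same 5 letters thus had equal scores in the 2 conditions in SC35 and unlike scores in SR45a.

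When the 100 nt around each 5′ss were folded with the reactivities, the mean probability that −2 and −1 were unpaired was below that of the 10 nt on either side. The difference was −0.174 ± 0.325 after deproteinization (n = 66) and −0.0789 ± 0.416 in vivo (n = 45). In all introns it was below 0 as well, at −0.0722 ± 0.34 after deproteinization and −0.0918 ± 0.337 in vivo. The members' difference was above 0 in 16 of 66 introns (background 40.4%) and in 16 of 45 (background 37.8%). Without reactivities the members' differences were −0.191 and −0.15, against −0.131 and −0.132 in all introns. The reactivities moved single sites more than the mean. The SCL33 long-intron site had a probability of 0.558 with them and 0.0307 without, and SCL30a intron 4 had 0.186 after deproteinization and 0.921 in vivo. SCL30 intron 3, with its high −2, was predicted as paired in both conditions (0.0286 and 0.018).

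Longer stretches also differed between conditions. For each gene with shared introns, the 10-nt stretch with the largest mean difference was chosen by that difference, so its values are a description. The median of the largest absolute difference was 0.309 over all shared introns, and longer entries offer more stretches. Stretches in the exon after an intron carry the limit on reads past a 3′ss given above. The stretches are printed with 10 nt on either side and their own letters in capitals.
SCL30 intron 1, chr3:20560975-20560984, plus strand: ttttgttttgATGAAATTGAggatcttgcg
SCL30a exon after intron 5, chr3:4429786-4429795, minus strand: gatatgagaaGGAGAGGTCAtactctcgct
SC35 intron 7, chr5:25681917-25681926, minus strand: gttacaaaaaCACTGTGTTTcagatgtgta
RSZ22 intron 4, chr4:15307721-15307730, plus strand: tgttaccttaGTACCTTATTttgaacggat
RSZ22a exon after intron 5, chr2:10450833-10450842, plus strand: gaaatggtctGAAAGATGTGcgcagaagcc
SR45a exon after intron 5, chr1:2258428-2258437, minus strand: gacgacataaGTCTCCTAGCtactctcccc
The stretches of SCL30 and RSZ22 were lower after deproteinization. They averaged 0.325 after deproteinization and 0.815 in vivo in SCL30, and 0.348 and 0.806 in RSZ22. The other 4 were higher after deproteinization. They averaged 0.662 after deproteinization and 0.157 in vivo in SCL30a, and 0.591 and 0.149 in SR45a. In SC35 the means were 0.599 and 0.214, and in RSZ22a 0.797 and 0.469.

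Scores depended little on the base. After deproteinization the members' nucleotides averaged 0.398 at A, 0.373 at C, 0.389 at G and 0.395 at U. In vivo they averaged 0.389 at A, 0.326 at C, 0.369 at G and 0.364 at U. The range over bases was 0.0249 after deproteinization and 0.0635 in vivo. Read from the base 1 nt downstream it was 0.0409 and 0.0406, so that after deproteinization a score followed the next base more than its own. In all introns the range was 0.035 at the own base and 0.0435 at the next base after deproteinization, against 0.0551 and 0.0414 in vivo. This touches every result at a single position after deproteinization, and its part in them was not tested.

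Poly(A) windows, 100 nt with the site taken as nucleotide 51, were available in 8 of the genes, all in 3′ untranslated regions. RSZ21 had 4 windows after deproteinization and 6 in vivo, SC35 2 and 4, RSZ22a 3 and 3, and RSZ22 1 and 1. SCL30 had 3 in vivo only, SR45a 2, and SCL33 and SR45 1 each. AATAAA, the canonical signal, was searched for on the strand of the gene, beginning 35 to 5 nt upstream of the site, and no member window held it. It was found there in 5.15% of all windows after deproteinization and 6.58% in vivo.

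The region from −28 to −17, where the signal usually lies, did not stand out in the members. It exceeded its flanks, the other nucleotides within 40 nt, by 0.0086 ± 0.122 after deproteinization (n = 10) and by 0.0195 ± 0.115 in vivo (n = 21). It was above them in 4 of 10 windows (background 59.6%) and in 11 of 21 (background 52.9%). The region from −4 to +1, across the site, exceeded the flanks by 0.0594 ± 0.134 after deproteinization and 0.0671 ± 0.186 in vivo, against 0.0195 and 0.014 in all windows. It was above them in 6 of 10 (background 52.6%) and in 12 of 21 (background 49.9%). Each excess was smaller than its SD over windows, and windows of a gene overlap.

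The windows with the most reactive sites or upstream regions are shown from −28 to +1 with −4 to +1 in capitals.
RSZ22, site chr4:15308342, plus strand: ctgctaaatgcctaagcgtttcttGTCTTT
RSZ21, site chr1:8427717, minus strand: tatctaaaaagctcaactgtttccACTCTT
RSZ21, site chr1:8427740, minus strand: gcactttccttattatatagacatATCTAA
SC35, site chr5:25681611, minus strand: aacagcctttttagtctctgttttATTTGA
In RSZ22 the site region averaged 0.685 after deproteinization and 0.756 in vivo, beside flanks of 0.361 and 0.311. In RSZ21, at the site nearest the gene end, the upstream region averaged 0.565 after deproteinization and 0.597 in vivo, beside flanks of 0.303 and 0.358. The RSZ21 site 483 nt before the gene end had 0.679 across the site in vivo, beside flanks of 0.266, and no deproteinized row. In SC35 the site region averaged 0.543 after deproteinization and 0.695 in vivo, beside flanks of 0.426 and 0.359. RSZ22 was high across the site in both conditions, and RSZ21 upstream of it.

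The remaining windows lay on either side of their flanks. In vivo the upstream region was highest above its flanks in SCL30 at chr3:20563745, by 0.252, whereas the SCL30 windows at 20563706 and 20563763 were at −0.0996 and −0.0422. SCL33 exceeded its flanks by 0.187 upstream and 0.169 at the site. SR45 had −0.0896 upstream and 0.196 at the site. SR45a at 2257530 and 2257480 had 0.0346 and 0.0564 upstream, and 0.0457 and −0.0908 at the site. SC35 at 25681239 was the lowest across the site, at −0.215, and SC35 at 25681305 had −0.127 there. The RSZ21 window at 8427731 had 0.0749 upstream and 0.0715 at the site.

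Among the shared windows not yet described, the RSZ21 sites at 8427778 and 8427754 were below their flanks in both regions and both conditions. The site at 8427778 had −0.127 across the site after deproteinization and −0.145 in vivo, and that at 8427754 had −0.0166 and −0.0382. The RSZ21 site at 8427772 had −0.112 and −0.0801 across the site. RSZ22a exceeded its flanks across the site at 10451151 by 0.133 after deproteinization and 0.245 in vivo, and at 10451042 by 0.085 and 0.123. At 10451082 it had −0.018 and 0.119, and SC35 at 25681573 had 0.0654 and −0.0807. The r between the conditions averaged 0.139 ± 0.102 over the 10 shared windows, between −0.0489 and 0.328, against 0.164 ± 0.144 over all 992.

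**Figure D5:**
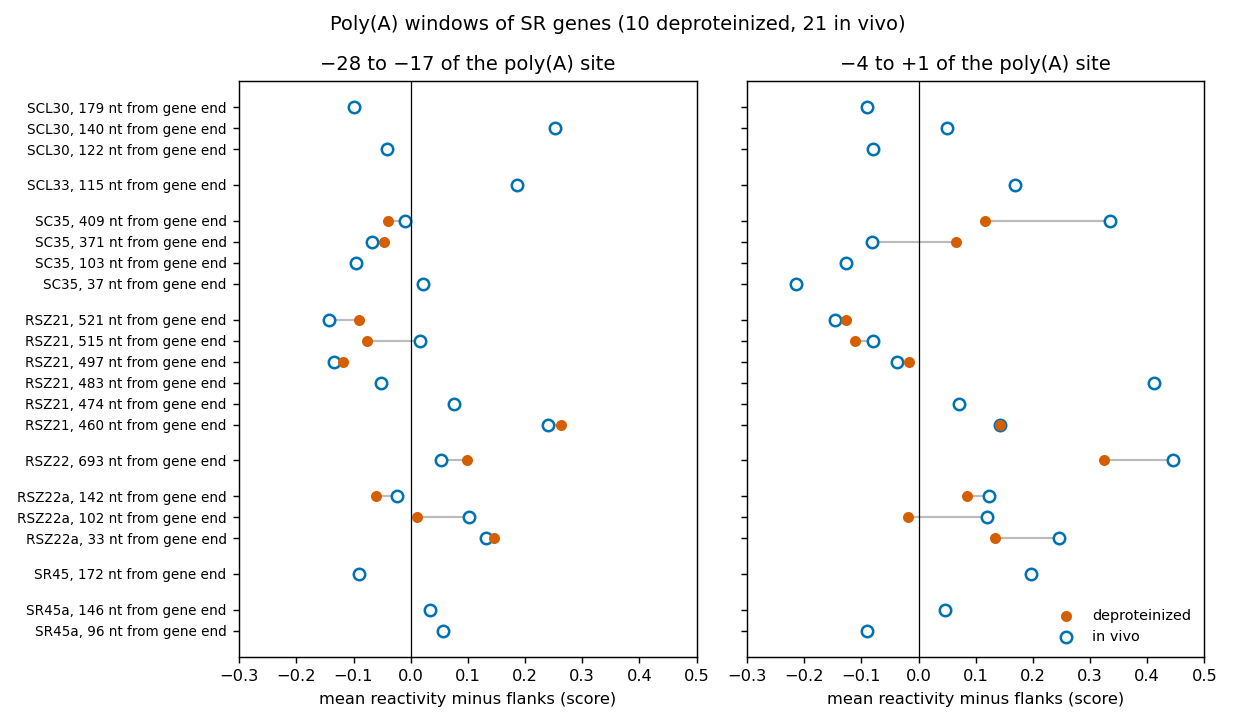
Mean reactivity of the region −28 to −17 (left) and −4 to +1 (right) minus that of the flanks (x axis, score) for each poly(A) window, named by gene and by the distance of the site from the gene end (y axis). Filled points are deproteinized, open points in vivo, joined by a grey line where both exist. The RSZ22 window is at 0.324 and 0.445 in the right panel, and the RSZ21 window 460 nt before the gene end is at 0.262 and 0.24 in the left panel.

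Sites of 3 genes lay inside an intron of the 3′ untranslated region, so that splicing and poly(A) tables described the same nucleotides. These were SC35 25681611 and 25681573 in the intron chr5:25681543-25681732, RSZ22 15308342 in chr4:15308254-15308358, and RSZ22a 10451082 and 10451151 in chr2:10451068-10451179. Over the shared nucleotides the scores of both tables had r between 0.64 and 0.808 after deproteinization, and between 0.494 and 0.813 in vivo, where RSZ22 had no row for its intron. The tables thus gave like but not equal profiles of the same RNA stretch. They use different reads and are scaled within different entries, and the part of either in the inequality was not tested.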

How the data were processed

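The values are SHAPE reactivity scores per nucleotide that the authors deposited in 4 tables, 1 for splicing and 1 for poly(A) sites per condition. Per the labels and methods, reads were checked with FastQC 0.11.5, trimmed with cutadapt 1.14 and mapped with HISAT2 2.1.0 to TAIR10 with AtRTD2 isoforms. Replicates were merged, stops of reverse transcription were counted, and scores were scaled within an entry. Splicing tables used unsplit reads only. The formula and the depth are not given in the sources used here, so no counting interval was possible.

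Rows were found by gene identifier, and 50 nt of exon were taken off either side. Strand, locations and sequences came from RefSeq TAIR10.1, and intron numbers from the mRNA with the longest coding sequence. With 1 merged profile per condition, means and SDs over introns or windows were set beside those of all rows, without tests. Folding used ViennaRNA 2.7.2 (Deigan slope 1.8, intercept −0.6), and other steps Python 3.11.15, NumPy 2.4.6, SciPy 1.17.1 and Biopython 1.88. The summaries were tested on simulated data.

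Named were all 10 genes, introns of alternative sets, the longest intron and the shared intron and stretch with the largest difference per gene, and every poly(A) window. Other introns were named after their values were seen. The members and lists were chosen with earlier results of these data known.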

Additional observations from a re-analysis of the deposited data

How the results depend on the processing

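Of 219 recalculations of 24 results, 10 changed sign and 1 count moved by over 1.5 times, but some that kept their sign shrank to near 0. The alternatives treated scores of 0 or the recurring intermediate score as missing, took medians, 1 intron per gene or distinct splice sites, narrowed the flanks to 10 nt, used shared introns only, moved the poly(A) site by 1 nt, or left out 1 gene at a time. At −2 in vivo the excess over the flanks became −0.0168 as a median and −0.00214 with 1 intron per gene. After deproteinization it was 0.0244 with 1 intron per gene. The difference at −2 between conditions was 0.0187 with 1 intron per gene, 0.0375 in entries with under 5% of nucleotides without a value in vivo, and 0.0692 without SR45a. The difference at −1 became 0.0434 without SR45a, 0 as a median, −0.0023 without scores of 0, −0.00399 without the recurring score and −0.0105 without RSZ22, and the branch site A after deproteinization −0.0819 as a median and 0.0145 without SC35. The region −28 to −17 changed sign after deproteinization in 5 settings: −0.00168 with the site at nucleotide 50, −0.0229 with 1 window per gene, −0.0429 as a median, −0.00145 without RSZ22 and −0.00133 without RSZ22a. In vivo it became −0.0117 with 1 window per gene. The count of introns with −2 changed by at least 0.3 was 10 at distinct sites, where fewer rows enter. The cause of the other changes was not tested.

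The counts of changes of at least 0.3, ranks within an entry, and the restriction to entries with under 5% of nucleotides without a value in vivo were chosen after seeing the data. No paired analysis was possible because each condition is 1 merged profile. Without depth or replicates, a difference at a single nucleotide cannot be set against an error.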
